A study of Homo sapiens with 45 samples.

Results

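Of the 23045 rows of the deposited tables, 6 are the genes of polyadenylated histone variants described here. All 6 were found by symbol in both the count and the TPM table. They are H2AFZ and H2AFV (both H2A.Z), H2AFY (macroH2A1), H3F3A and H3F3B (both H3.3) and H1F0 (the linker histone H1.0). Each was read in 45 single cells. They came from H1, an established line of human embryonic stem cells, and all were at passage 40. Fixed cells prepared with FRISCR numbered 12, live cells prepared with FRISCR 15, fixed cells lysed with Triton X-100 numbered 7, and live cells lysed with Triton X-100 numbered 11. FRISCR is a method for single fixed cells in which crosslinks are undone and the mRNA is purified before the library is made, whereas Triton X-100 is a mild detergent. The sample titles carry the code PLRC for the FRISCR groups and RLT for the Triton groups, and the groups here follow the source names and the sample group label. Fixed cells were labelled DAPI-positive and live cells DAPI-negative, the titles carry 2 library codes (library sets 1 and 2, each with cells of every group), and no allele or drug distinguished the groups. The labels name no fixative for these cells and no separate cultures, so each group was treated as 1 sample, no p-value is given, and the cell-to-cell range is the spread shown.

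Nucleosomes wrap DNA around pairs of histones H2A, H2B, H3 and H4, and linker histone H1 binds where the DNA enters and leaves. Most histone mRNA is made during DNA replication and ends in a stem-loop without a poly(A) tail. Variant histones are made through the cell cycle from polyadenylated mRNA and are placed by their own chaperones: H2A.Z at promoters and enhancers, H3.3 at active genes, telomeres and repeats, macroH2A mostly in silent chromatin. In embryonic stem cells H2A.Z and H3.3 are known at promoters of developmental genes. Smart-seq2, the library method given in the labels, primes on poly(A) tails.

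Windows of 30 bases around the signal found near the 3' end of the annotated transcript are shown for 5 variants and for 2 replication-dependent histones. The letters are from GENCODE release 29, 5' to 3', with the poly(A) signal AATAAA or its variant ATTAAA, or for the HIST1 genes the stem-loop alone, in capitals.
H2AFZ: gtggataagttcAATAAAggtcatatccca
H2AFV: ttatatgatggaATTAAAtatattctgtgt
H3F3A: taagtttgctATTAAAatacATTAAActat
H3F3B: ggatgagactaaAATAAAatttttgaagtt
H1F0: ttaaaactttaaAATAAAttggaaaaggga
HIST1H4J: caataaaaGGCCCTTTTCAGGGCCacccta
HIST1H2AI: aaccaaaGGCTCTTTTCAGAGCCacctaca
The bases left between the last signal and the transcript's end numbered 14 for H2AFZ, 17 for H2AFV, 4 for H3F3A, 14 for H3F3B, 20 for H1F0, 6 for HIST1H4J and 39 for HIST1H2AI. The window of HIST1H4J also holds AATAAA, in lower case, before its stem-loop. AATAAA or ATTAAA was searched on the transcript's own strand in the last 40 bases, and it was present for 5 of the 6 variants; the transcript used for H2AFY held neither word there. Of 18878 protein-coding genes 74.1% held one of them in that window, and 60.5% held AATAAA. The histone stem-loop was searched by a single strict pattern anywhere in the transcript, so stem-loops with other bases would be missed. That pattern was found in 24 of 67 replication-dependent histone genes and in 26 of all 18878 genes, or 0.138%. It does not count how many of these genes have a stem-loop. Both HIST1 genes are on chromosome 6. The variants lie on chromosomes 4 (H2AFZ), 7 (H2AFV), 5 (H2AFY), 1 (H3F3A), 17 (H3F3B) and 22 (H1F0). The deposited tables were made on GRCh37, for which no annotation was used here, so no positions are given.

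The paired genes of H3.3 and of H2A.Z are shown by their last coding bases, stop codon included, with the bases that differ between partners in capitals, because reads must be told apart by such differences. H3F3A and H3F3B encode the same protein, and the products of H2AFZ and H2AFV differ in a few residues.
H3F3A: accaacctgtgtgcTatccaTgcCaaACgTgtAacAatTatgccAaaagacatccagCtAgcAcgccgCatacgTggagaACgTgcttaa
H3F3B: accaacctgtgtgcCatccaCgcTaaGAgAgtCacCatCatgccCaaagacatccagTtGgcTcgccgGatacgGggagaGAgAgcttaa
H2AFZ: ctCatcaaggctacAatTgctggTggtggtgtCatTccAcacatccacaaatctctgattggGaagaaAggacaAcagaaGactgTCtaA
H2AFV: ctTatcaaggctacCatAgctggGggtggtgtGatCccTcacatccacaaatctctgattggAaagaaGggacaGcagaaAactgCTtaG
The stretches of the H3.3 pair are coding bases 322 to 411 and differ at 18 bases, and those of the H2A.Z pair are coding bases 298 to 387 and differ at 14. Over the whole coding sequence H3F3A and H3F3B were 78.6% identical, with 88 differences of which 77 fell on the third base of a codon. H2AFZ and H2AFV were 80.4% identical, with 76 differences of which 65 fell on the third base. No window of 50 bases was shared between partners. Windows were shared, on either strand, with annotated transcripts of other genes, so values may include or lose reads of those genes. These were 28.8% of the windows of H3F3A, all of them also in H3F3AP4, and 23.2% of those of H2AFY, split between C5orf66 and AC026691.1. They were 8.28% of H3F3B, all with H3F3C, 7.85% of H2AFZ, 3.06% of H2AFV and none of H1F0. How such reads were counted, and whether strand was used, is not given in the sources used here.

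Total counts were 3388444 to 6594061 per cell. Thinned to 1000000 counts, the median number of genes was 5083 in fixed Triton cells, against 8901 in fixed FRISCR, 9081 in live FRISCR and 9650 in live Triton cells. In fixed Triton cells the row TVAS5 held a median of 26.3% of counts and the rRNA-named rows 9.00%, against 6.90% and 1.26% in live Triton cells and medians under 1% for either in both FRISCR groups. Every one of the 10 pluripotency markers had a count in every group, at a median summed level of 5859 CPM (counts per 1000000) in fixed FRISCR, 5935 in live FRISCR, 1840 in fixed Triton and 5104 CPM in live Triton cells. Of 8 neural markers 3 had no count in fixed FRISCR, live FRISCR and live Triton cells, and 5 had none in fixed Triton cells. Of 7 fibroblast markers 3 and 4 had none in the same sets of groups. Neural markers at 10 CPM or more numbered 3 in fixed FRISCR, live FRISCR and live Triton cells and 2 in fixed Triton cells. Fibroblast markers at that level numbered 3 in every group. The neural markers summed to a median of 140, 274, 94.9 and 156 CPM in fixed FRISCR, live FRISCR, fixed Triton and live Triton cells. The fibroblast markers summed to 553, 688, 246 and 589 CPM in the same order.

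The 6 genes together made up a median of 0.500% of counts in fixed FRISCR cells, 0.367% in live FRISCR, 0.264% in fixed Triton and 0.406% in live Triton cells. Per length, as transcripts per 1000000 (TPM), H2AFZ was the most abundant member in all 45 cells, with a median of 4598 TPM in fixed FRISCR, 3199 in live FRISCR, 1805 in fixed Triton and 3552 TPM in live Triton cells. Its median TPM ranked 12 among all rows in fixed FRISCR cells, 29 in live FRISCR, 77 in fixed Triton and 17 in live Triton cells. H3F3A and H3F3B came next, and H3F3A exceeded H3F3B in most cells of each group, in 11 of 12 fixed FRISCR, 12 of 15 live FRISCR, 6 of 7 fixed Triton and 7 of 11 live Triton cells. H2AFV, H2AFY and H1F0 lay far below, and each of the 3 abundant genes exceeded each of the 3 scarce ones in every FRISCR and live Triton cell and in 5 of 7 fixed Triton cells. Among the scarce genes H2AFV exceeded H2AFY in 11 of 12 fixed FRISCR and 10 of 15 live FRISCR cells. With Triton it did so in 5 of 7 fixed and 11 of 11 live cells. The order of H2AFY and H1F0 did not hold within the spread. H2AFY exceeded H1F0 in 6 of 12 fixed FRISCR and 9 of 15 live FRISCR cells, and with Triton in 2 of 7 fixed and 8 of 11 live cells.

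**Figure D1:**
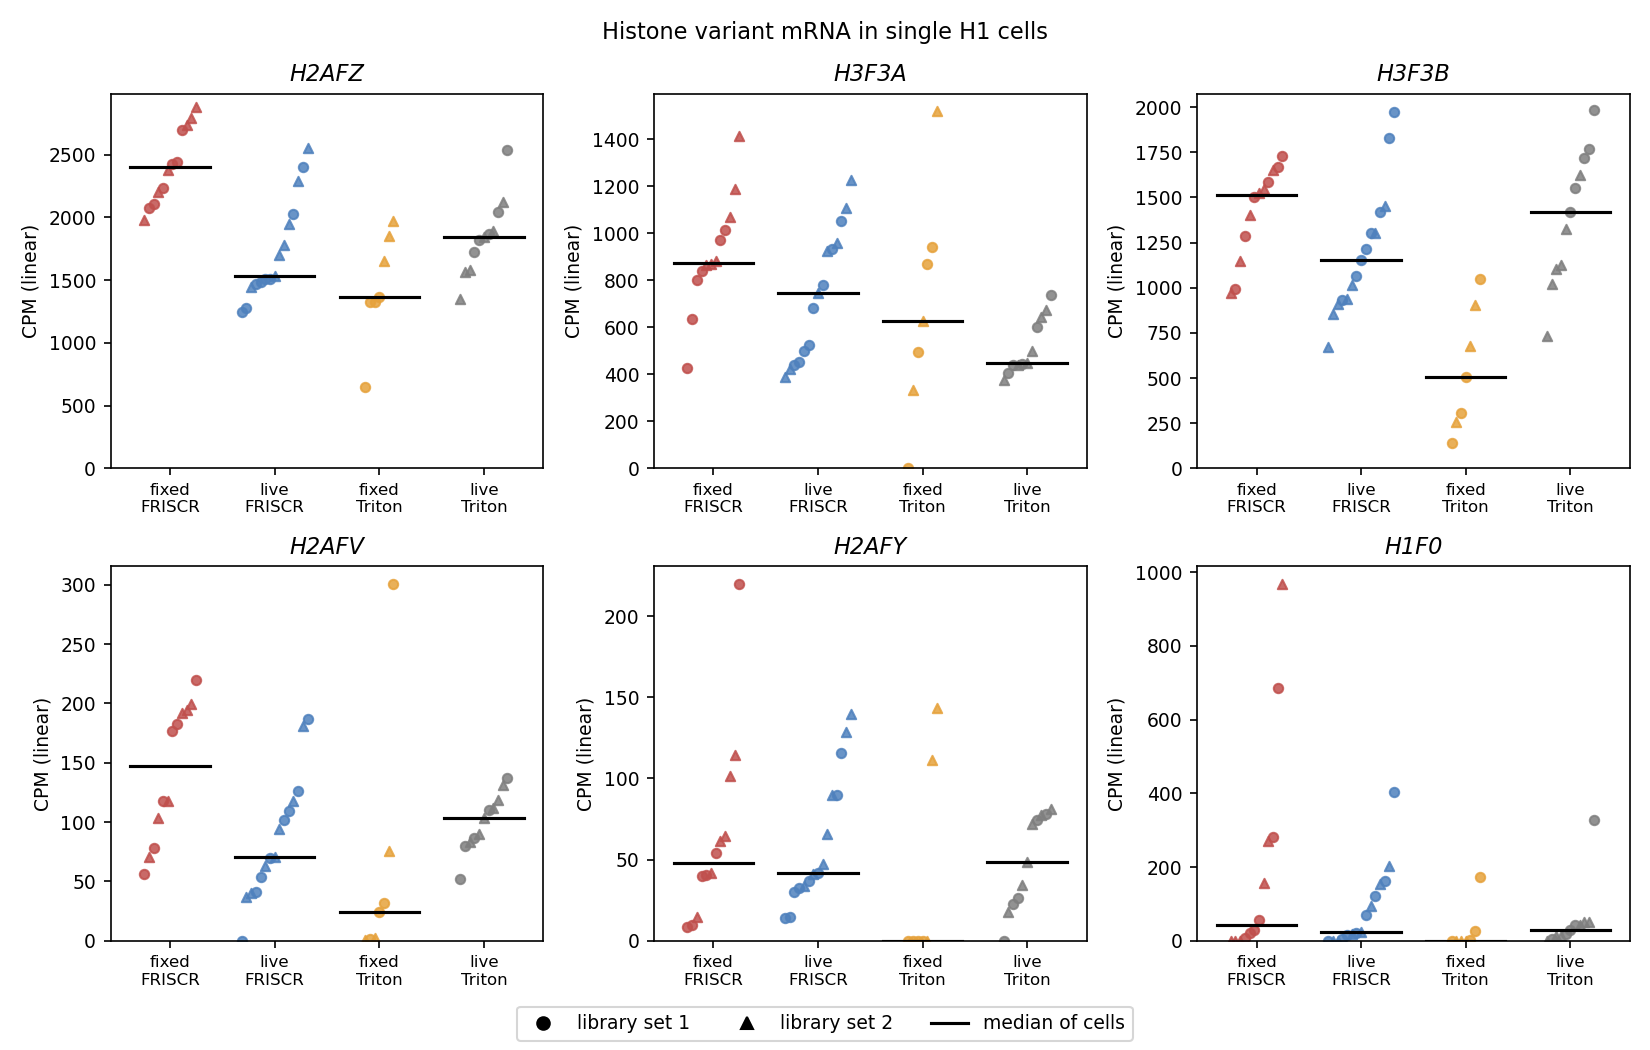
Each panel plots 1 gene in CPM (linear axis from 0), with 1 point per cell in the 4 groups, circles for library set 1, triangles for library set 2 and a bar at the median. H2AFZ in fixed FRISCR cells lies between 1983 and 2877 CPM, above every fixed Triton cell, while H1F0 spreads between 0 and 968 CPM in the same group.

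Fixed and live cells, both prepared with FRISCR, were compared first. The fixed cells were also DAPI-positive and the live cells DAPI-negative, so the part of fixation itself was not tested. H2AFZ was 1.38-fold higher in fixed cells, H2AFV 1.69-fold, H3F3A 1.25-fold and H3F3B 1.17-fold higher, each with the same direction in both library sets. For H3F3B the log2 ratio was 0.08 in set 1 and 0.42 in set 2. H1F0 was the only member past 2-fold, at 2.22-fold higher, and H2AFY had a ratio of 1.02, which was just below 1 by mean TPM (log2 -0.02). The ratios are of summed CPM; their 95% intervals cover counting error only, and amplified reads, counted here without molecular identifiers, are not separate molecules, so the range over cells is the larger error throughout. By the median of cell CPM H2AFV was past 2-fold (log2 1.07) and H1F0 was not (0.93). By summed CPM 1 of 6 members was more than 2-fold higher and 0 lower, against 3.34% of 7518 genes more than 2-fold higher and 7.69% lower.

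H2AFZ, the main H2A.Z gene, had a lowest, median and highest value of 1983, 2404 and 2877 CPM in fixed FRISCR cells, against 1245, 1533 and 2558 CPM in live FRISCR cells. The groups overlapped, although every fixed cell exceeded the live median. The log2 ratio was 0.46, at 0.55 in set 1 and 0.37 in set 2, beside a median of -0.02 over all genes. The coefficient of variation (CV, the SD as a percent of the mean) was 12.6% in fixed FRISCR cells, and of 69 genes within 2-fold of its mean 7.25% had a smaller one, while in live FRISCR cells it was 23.6% and 53.1% of like genes were smaller.

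H2AFV, the second H2A.Z gene, had 56.6, 147.6 and 219.6 CPM in fixed FRISCR cells, against 0.186, 70.5 and 187.1 CPM in live FRISCR cells. The ranges overlapped over most of their length, and 1 live cell stood near 0 with a single count. The log2 ratio was 0.75, at 0.74 in set 1 and 0.76 in set 2. H2AFY, which encodes macroH2A1 with its large non-histone domain, had 8.25, 47.9 and 219.9 CPM in fixed cells, against 13.9, 41.6 and 140.0 CPM in live cells, and its log2 ratio of 0.02 had opposite signs in the sets, 0.29 and -0.20.

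H3F3A had 425.6, 874.8 and 1413 CPM in fixed FRISCR cells, against 387, 746 and 1228 CPM in live FRISCR cells. H3F3B had 968.9, 1516 and 1730 CPM in fixed cells, against 671.6, 1156 and 1972 CPM in live cells. Both genes overlapped between the groups almost throughout, with log2 ratios of 0.33 and 0.22.

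H1F0, whose H1.0 protein compacts chromatin and is known to accumulate as cells stop dividing, varied most among cells. It had a lowest, median and highest value of 0, 43.4 and 968 CPM in fixed FRISCR cells, against 0, 22.7 and 405 CPM in live FRISCR cells. The groups overlapped throughout except for 2 fixed cells above all live ones, at 686 and 968 CPM. The log2 ratio was 1.15 over all cells, 0.77 in set 1 and 1.60 in set 2, and it was 0.60 without fixed FRISCR replicate 8 and 0.78 without replicate 2, so it passed 2-fold only with both of these cells. Its CV was 151% in fixed FRISCR and 129% in live FRISCR cells, and 99.9% and 99.0% of genes of like mean varied less in those groups. In live Triton cells the CV was 172%, above that of 99.8% of like genes, with 1 cell at 329 CPM and the others at or below 51.1 CPM. Counts of H1F0 were present in 10 of 12 fixed FRISCR, 12 of 15 live FRISCR, 4 of 7 fixed Triton and 10 of 11 live Triton cells.

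**Figure D2:**
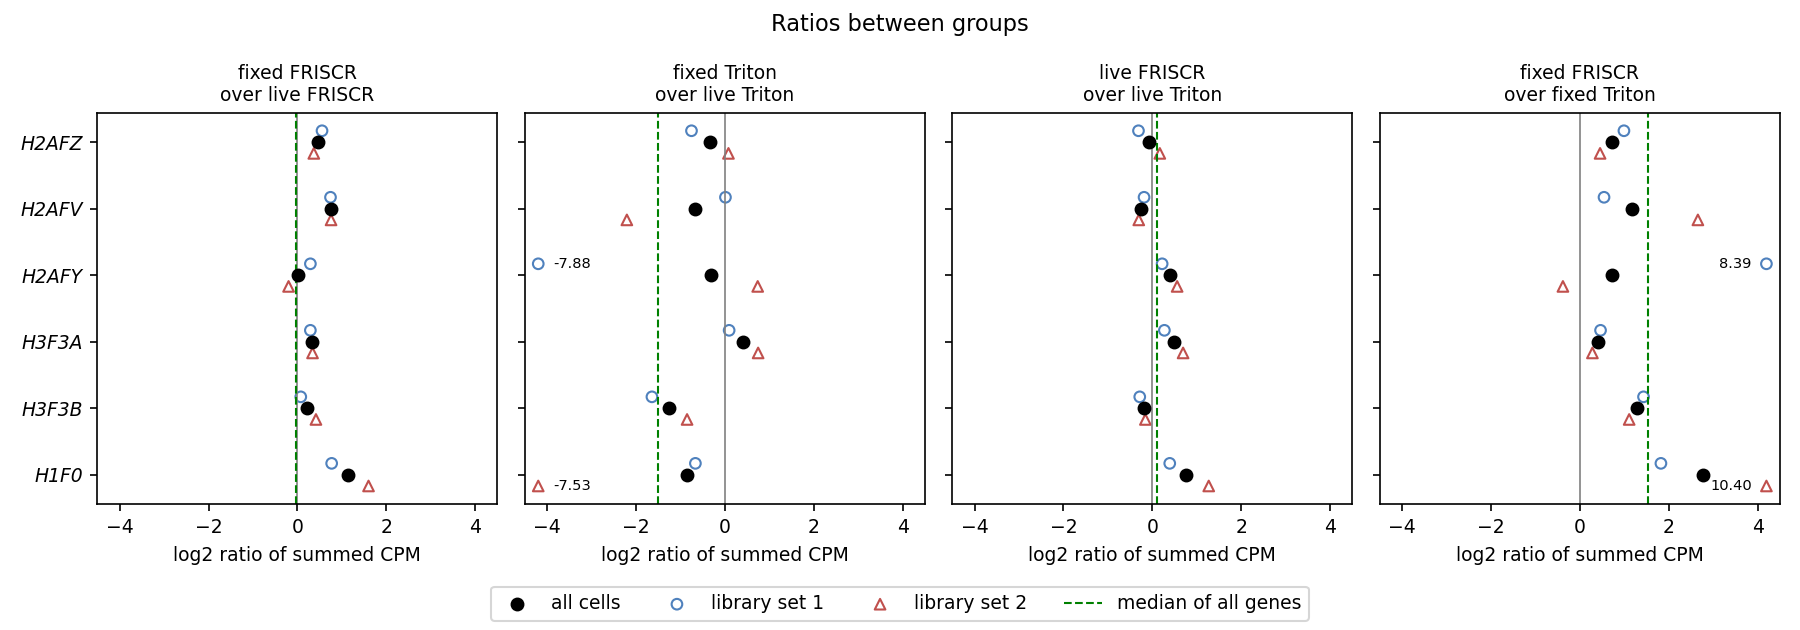
Log2 ratios of summed CPM for the 6 genes in 4 comparisons, with filled points for all cells, open circles and triangles for library sets 1 and 2, lines for counting intervals (shorter than the points) and a dashed line at the median of all genes; set values beyond the axis are written beside it. All 6 points lie right of the dashed line at -1.50 for fixed over live Triton cells; H2AFY in set 1 is placed at its floor of 3 counts, and H1F0 in set 2 rests on 2 counts.

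Fixed and live cells lysed in Triton X-100 were compared in the same way. H3F3B, at 2.39-fold lower in fixed cells, was the only member past 2-fold, whereas H3F3A was 1.33-fold higher, a direction that turned by mean TPM (log2 -0.20). H2AFZ was 1.26-fold lower, H2AFV 1.60-fold, H2AFY 1.25-fold and H1F0 1.82-fold lower, but with TMM scaling these 4 were higher in fixed cells, at log2 0.68, 0.34, 0.70 and 0.16. H3F3B stayed lower with TMM, at log2 -0.24. So 0 of 6 were more than 2-fold higher and 1 lower, against 12.4% and 58.5% of 7256 genes. The median log2 ratio of all genes was -1.50, and each of the 6 lay above it, by 0.24 for H3F3B, 0.64 for H1F0, 0.82 for H2AFV, 1.17 for H2AFZ, 1.18 for H2AFY and 1.92 for H3F3A. That median itself was -0.48 with TMM scaling, -0.30 with median-of-ratios scaling and -1.86 by mean TPM, by which H3F3B lay just below it, at -0.06 relative to it. Low gene number, TVAS5 and rRNA-named rows moved with this comparison, and their part in these ratios was not tested.

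H3F3B had 137, 503 and 1048 CPM as lowest, median and highest in fixed Triton cells, against 731, 1419 and 1984 CPM in live Triton cells. Of the 7 fixed cells 5 lay below every live cell, and the other two lay within the live range; all fixed cells lay below all live ones for 10.3% of genes, but for no member. The log2 ratio was -1.26, at -1.64 in set 1 and -0.85 in set 2.

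H3F3A had 0, 628 and 1519 CPM in fixed Triton cells, against 376, 449 and 737 CPM in live Triton cells. Fixed cells lay on both sides of the live range, and replicate 4 had no count of H3F3A although it had 2010 counts of H3F3B. The log2 ratio was 0.42, at 0.10 in set 1 and 0.75 in set 2.

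H2AFZ had 650, 1367 and 1970 CPM in fixed Triton cells, against 1353, 1843 and 2541 CPM in live Triton cells. It had a count in every cell of both groups, and 3 of 7 fixed cells lay below every live cell while the others lay within the live range. The log2 ratio was -0.34, at -0.75 in set 1 and 0.08 in set 2. Its CV of 30.2% in fixed Triton cells was smaller than the median of 42.4% for the 110 genes of like mean.

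H2AFV, H2AFY and H1F0 were each carried by 1 or 2 of the 7 fixed Triton cells. H2AFV had 0.228, 24.6 and 301 CPM, against 52.3, 103 and 137 CPM in live Triton cells, and without replicate 1, the highest cell, its log2 ratio of -0.68 became -2.24. H2AFY had counts in 2 of 7 fixed cells, at 111 and 144 CPM, against 10 of 11 live cells with a highest value of 81.2 CPM. It had no count in any of the 4 fixed cells of set 1, where 3 counts would equal 0.182 CPM, so its log2 ratio in that set was at most -7.88; of genes tested in this comparison 11.0% had no count in those cells. In set 2 the ratio was 0.74, and without replicate 6 the ratio over both sets was -1.30. H1F0 had 0, 0.456 and 174 CPM in fixed Triton cells, against 0, 29.7 and 329 CPM in live Triton cells, and its log2 ratio of -0.86 was -3.75 without fixed replicate 1 and 0.12 without live replicate 5.

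The difference of the fixed over live log2 ratios, FRISCR minus Triton, was 0.80 for H2AFZ, 1.43 for H2AFV and 0.34 for H2AFY. It was -0.09 for H3F3A, 1.48 for H3F3B and 2.01 for H1F0. Over 8170 genes the median of this difference was 1.55. The difference was positive in both sets for H2AFZ (1.31 and 0.29), H2AFV (0.73 and 2.96), H3F3B (1.72 and 1.27) and H1F0 (1.43 and 9.13, the second from 2 counts), and differed in sign for H2AFY and H3F3A. It was not tested, since each group is 1 sample.

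Live cells prepared with FRISCR were then compared with live cells lysed with Triton. No member passed 2-fold in either direction, against 6.57% of 7447 genes higher and 3.14% lower. H3F3A was 1.40-fold higher with FRISCR, H2AFY 1.31-fold and H1F0 1.69-fold higher, while H2AFZ was 1.05-fold, H3F3B 1.15-fold and H2AFV 1.20-fold lower. By the median of cell CPM the signs of H2AFY and H1F0 turned (log2 -0.23 and -0.39). The library sets differed in sign for H2AFZ (log2 -0.31 in set 1 and 0.17 in set 2). Cells of the groups overlapped for every member. H1F0 moved to a log2 ratio of 1.74 without live Triton replicate 5, against 0.76 with all cells.

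Among fixed cells all 6 members were higher with FRISCR than with Triton by total counts, although with TMM scaling H3F3A, H2AFZ and H2AFY were lower (log2 -0.69, -0.36 and -0.36). The folds by total counts were 1.32 for H3F3A, 1.66 for H2AFZ and for H2AFY, 2.26 for H2AFV, 2.43 for H3F3B and 6.81 for H1F0. So 3 of 6 were more than 2-fold higher and 0 lower, against 59.8% and 10.6% of 7272 genes, and 5 of the 6 lay below the median log2 ratio of 1.53, which was 0.44 with TMM. By CPM of total counts every fixed FRISCR cell exceeded every fixed Triton cell in H2AFZ, as was so for 4.95% of these genes. The ratio of H2AFV fell below 2-fold when fixed Triton replicate 4, 6 or 7 was left out (log2 0.96, 0.94 and 0.94) and was 2.74 without replicate 1. That of H1F0 was 5.66 without fixed Triton replicate 1, and that of H2AFY was 1.72 without replicate 6 and 1.30 without replicate 7. In set 2 the log2 ratio of H2AFY was -0.38, and in set 1, where fixed Triton cells had no count, it was at least 8.39 with the floor of 3 counts. These fixed Triton cells are the same ones as in the comparison with live Triton cells.

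The pair H3F3A and H3F3B can be set against each other within a cell, which removes the scaling. Of their summed TPM, H3F3B made up a lowest, median and highest share of 22.8%, 36.9% and 56.8% in fixed FRISCR cells and 20.9%, 39.8% and 53.1% in live FRISCR cells. In fixed Triton cells it was 4.99%, 21.7% and 100%, against 36.9%, 47.1% and 61.7% in live Triton cells. All fixed Triton cells except replicate 4, which had no H3F3A count, had a smaller H3F3B share than every live Triton cell, and both FRISCR groups spanned similar ranges. Set 1 had the higher median share in every group, at 58.7% against 44.9% for set 2 in live Triton cells. By counts rather than TPM, H3F3B had median shares of 62.0% in fixed FRISCR, 65.0% in live FRISCR and 71.6% in live Triton cells, but 43.3% in fixed Triton cells, where 4 of 7 cells had more counts of H3F3A.

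H2AFZ made up nearly all of the summed TPM of the H2A.Z pair, with a median share of 96.9% in fixed FRISCR, 97.6% in live FRISCR, 98.7% in fixed Triton and 97.4% in live Triton cells. Its lowest share over all cells was 87.6%, in fixed Triton replicate 1, and its highest was close to 100% in cells with almost no H2AFV.

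**Figure D3:**
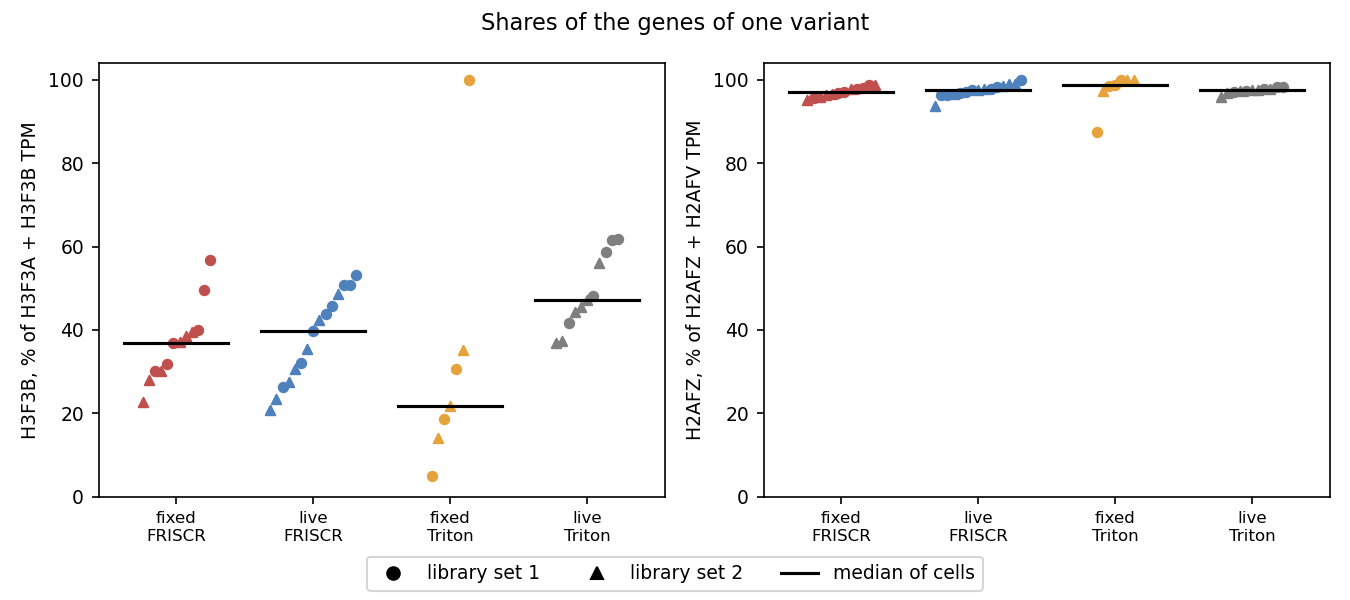
Share of H3F3B in the summed TPM of both H3.3 genes (left) and of H2AFZ in that of both H2A.Z genes (right), in percent, with 1 point per cell, circles for set 1, triangles for set 2 and bars at the medians. The H3F3B share of 6 of 7 fixed Triton cells lies at or below 35.2%, under the lowest live Triton cell at 36.9%, and the H2AFZ share stays above 93% in all cells but 1.

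The transcript length that the authors' estimates used can be read as counts per TPM relative to H3F3A in the same cell. H2AFZ was shorter than H3F3A, at a ratio of 0.891 with a range of 0.887 to 0.899 over 44 cells, and H3F3B was the longest, at 2.77 with a range of 2.65 to 2.84. H2AFY stood at 1.93 and H1F0 at 2.38, both within narrow ranges. H2AFV varied, at a median of 1.77 with a range of 1.28 to 2.99 over 41 cells with at least 20 counts, and in the 4 fixed Triton cells among them it lay between 1.28 and 1.41. H2AFV has annotated transcripts of different length, and its CPM and TPM therefore need not keep the same order among cells. From the shortest to the longest member, the log2 ratio of fixed over live Triton cells was -0.34 for H2AFZ, 0.42 for H3F3A and -0.68 for H2AFV. It was -0.32 for H2AFY, -0.86 for H1F0 and -1.26 for H3F3B. The part of length was not tested.

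The polyadenylated variants and the 69 replication-dependent histone rows, taken as those named HIST1H, HIST2H or HIST4H, moved in different ways between preparations. Whether each of these rows lacks a poly(A) tail was not tested. The 6 variants summed to a lowest, median and highest 4551, 5001 and 6991 CPM in fixed FRISCR and 3045, 3667 and 5063 CPM in live FRISCR cells. They summed to 1154, 2643 and 3963 CPM in fixed Triton and 2987, 4064 and 4880 CPM in live Triton cells. The replication-dependent rows had 33.7, 49.6 and 167 CPM in fixed FRISCR and 8.65, 72.7 and 212 CPM in live FRISCR cells. They had 312, 2982 and 4707 CPM in fixed Triton and 95.7, 456 and 1683 CPM in live Triton cells, which overlapped. The variants exceeded them by a median of 98.3 times in fixed FRISCR, 65.7 times in live FRISCR, 1.16 times in fixed Triton and 10.1 times in live Triton cells. Over cells this ratio was 30.0 to 137 in fixed FRISCR and 19.7 to 371 in live FRISCR cells. It was 0.579 to 7.20 in fixed Triton and 2.46 to 36.6 in live Triton cells, which again overlapped. HIST1H4J, whose stem-loop is printed above, was the most abundant of them with FRISCR, at 28.0 CPM in fixed against 18.2 CPM in live cells, and HIST1H2AI had 20.1 CPM in fixed against 0.778 CPM in live Triton cells. All 14 replication-dependent genes that reached 20 CPM in either Triton group were more than 2-fold higher in fixed cells, where 12.4% of all genes were. Genes low in live Triton cells could pass that filter only through the fixed cells. Only 6 replication-dependent genes reached 20 CPM in either live group, so for the rest of the 14 the direction was set by the filter. Without a filter, the 69 rows summed to 2680 CPM over fixed and 705 CPM over live Triton cells.

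**Figure D4:**
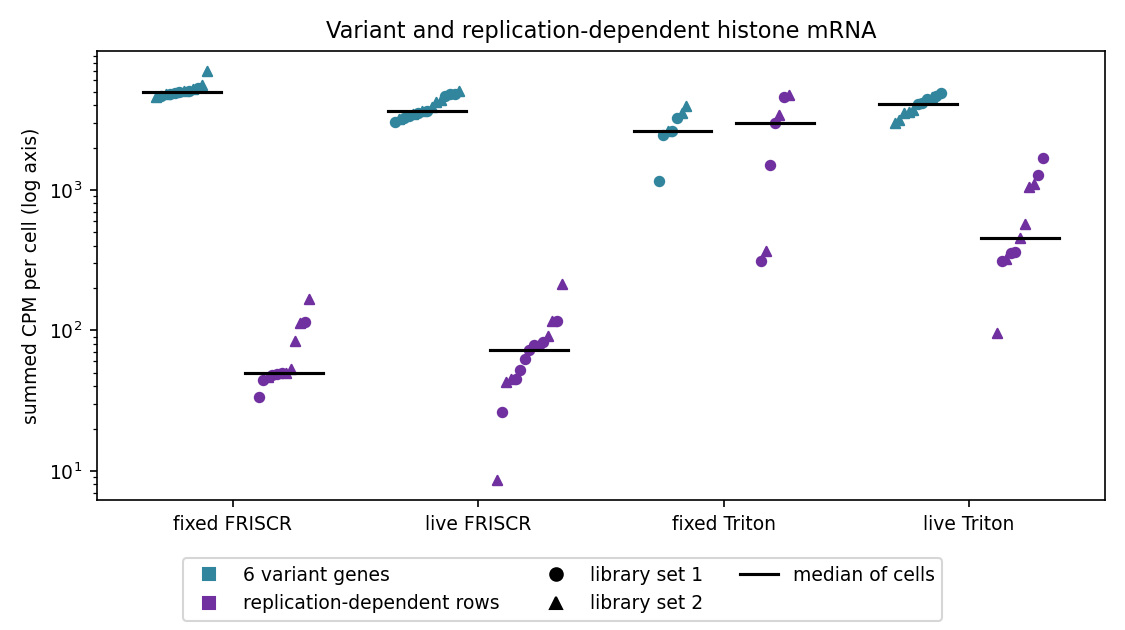
Summed CPM per cell (log axis) of the 6 variant genes and of the 69 replication-dependent rows in the 4 groups, with circles for set 1, triangles for set 2 and bars at the medians. The variants stay between 1154 and 6991 CPM, while the replication-dependent rows lie at or below 212 CPM in FRISCR cells and reach 4707 CPM in fixed Triton cells.

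Among other histone variants, 3 of the 9 listed genes reached 20 CPM when fixed and live FRISCR cells were compared. H2AFY2, which encodes macroH2A2, had 14.9 CPM in fixed against 51.3 CPM in live FRISCR cells, 3.44-fold lower and in the same direction in both sets (log2 -1.85 and -1.67). It had 1 count in all fixed Triton cells, against 22.0 CPM in live Triton cells, a ratio of 0.00156 with a counting interval of 3.94e-05 to 0.0087. H2AFX, the variant phosphorylated at DNA breaks, had 55.6 CPM in fixed against 44.5 CPM in live FRISCR cells.

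The genes that place and remove H2A.Z, those of the SRCAP and p400/TIP60 complexes and their partners, differed little between fixed and live FRISCR cells: 0 of 18 were past 2-fold, with a median log2 of 0.08. In fixed against live Triton cells 10 of 17 were more than 2-fold lower and 0 higher, with a median of -2.80 beside -1.50 for all genes and a background of 58.5% lower. VPS72 (YL1), which carries H2A.Z, had 0 counts in fixed against 102 CPM in live Triton cells, at least 989-fold lower with a floor of 3 counts over the group. MORF4L1, the most abundant of them, had 451 CPM in fixed against 951 CPM in live Triton cells. SRCAP, the ATPase of its complex, had 21.4 CPM in live FRISCR cells, against 49.7 CPM in live Triton cells, the only one of 17 past 2-fold there.

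Of 11 H3.3 deposition genes, 1 was higher and 1 lower past 2-fold in fixed than in live FRISCR cells. HIRA, which places H3.3 at active genes, had 22.8 CPM in fixed against 10.0 CPM in live cells, and CABIN1, of the same complex, had 10.6 CPM in fixed against 24.9 CPM in live cells. In fixed against live Triton cells 6 of 9 were lower, with ATRX at 29.4 CPM in fixed against 194 CPM in live cells and DEK at 141 CPM in fixed against 351 CPM in live cells. Of the genes of replication-coupled assembly, 1 of 8 was lower with FRISCR, CHAF1B, at 8.49 CPM in fixed against 32.5 CPM in live cells, and 6 of 7 were lower with Triton.

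General chaperones of H1 and of H2A and H2B had 0 of 11 past 2-fold with FRISCR, and 6 of 11 lower and 0 higher with Triton. SET, which binds linker and core histones, had 5011 CPM in fixed against 2551 CPM in live Triton cells, just within 2-fold. Of the genes that process histone mRNA 3' ends, 1 of 8 was lower in fixed FRISCR cells, SYMPK, and 4 of 7 were lower in fixed Triton cells. All of these shares stand beside the same backgrounds, of 3.34% higher and 7.69% lower with FRISCR and 12.4% higher and 58.5% lower with Triton.

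The members were set against each other over the 26 live cells. Pearson's r of log2(CPM + 1), centred within group and library set, ranged between -0.32 and 0.41 over 15 pairs, with a median of -0.03. This pooled r was 0.13 between H3F3A and H3F3B and 0.12 between H2AFZ and H2AFV. Spearman's rho over the same cells ranged between -0.48 and 0.36. Pearson's r ranged between -0.40 and 0.51 in live FRISCR cells alone and between -0.61 and 0.54 in live Triton cells alone. In these groups 13 and 10 of the 15 pairs kept the pooled sign, which is partly built in because they make up the pooled cells. In the 12 fixed FRISCR cells 7 of the 15 pairs had the same sign as in live cells. Cells of a group share a preparation and their values share each cell's total, so these are descriptions only.

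The genes most like each member were ranked among the genes whose mean reached 50 CPM in both live groups, 3456 for H2AFY and 3455 for each other member. H2AFZ was most like HMGB1, an abundant non-histone chromatin protein, at r = 0.80 over 26 live cells, with 0.81 in live FRISCR and 0.77 in live Triton cells, but 0.04 in 12 fixed FRISCR cells. AHSA1 followed at 0.65 with 0.12 in fixed FRISCR cells, and HSPD1 at 0.62 with 0.59. H3F3A was most like RPL37, a ribosomal protein gene, at 0.75 with 0.55 in fixed FRISCR cells, then like SSRP1 at 0.66 with 0.09 and RPL41 at 0.65 with 0.59. H3F3B was most like DYNLT1, at 0.67 with 0.86 in live FRISCR, 0.22 in live Triton and -0.42 in fixed FRISCR cells. LITAF followed at 0.67 with -0.30 in fixed FRISCR cells, and SRSF1 at 0.66 with 0.47. H2AFV was most like NUP50 at 0.89, but this rested on live FRISCR cells (0.91, against -0.21 in live Triton cells) and Spearman's rho was 0.52. H2AFY was most like FIS1, at 0.78 with 0.35 in live FRISCR, 0.90 in live Triton and -0.04 in fixed FRISCR cells. H1F0 was most like ISYNA1, at 0.75 with 0.90, 0.41 and 0.16 in the same groups. The live groups also differed for SSRP1 (0.73 with FRISCR and 0.26 with Triton) and AHSA1 (0.77 and 0.42). Live Triton replicate 4 had no count of H2AFY, and live FRISCR replicate 3 had a single count of H2AFV. The highest of so many values is high by selection.

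**Figure D5:**
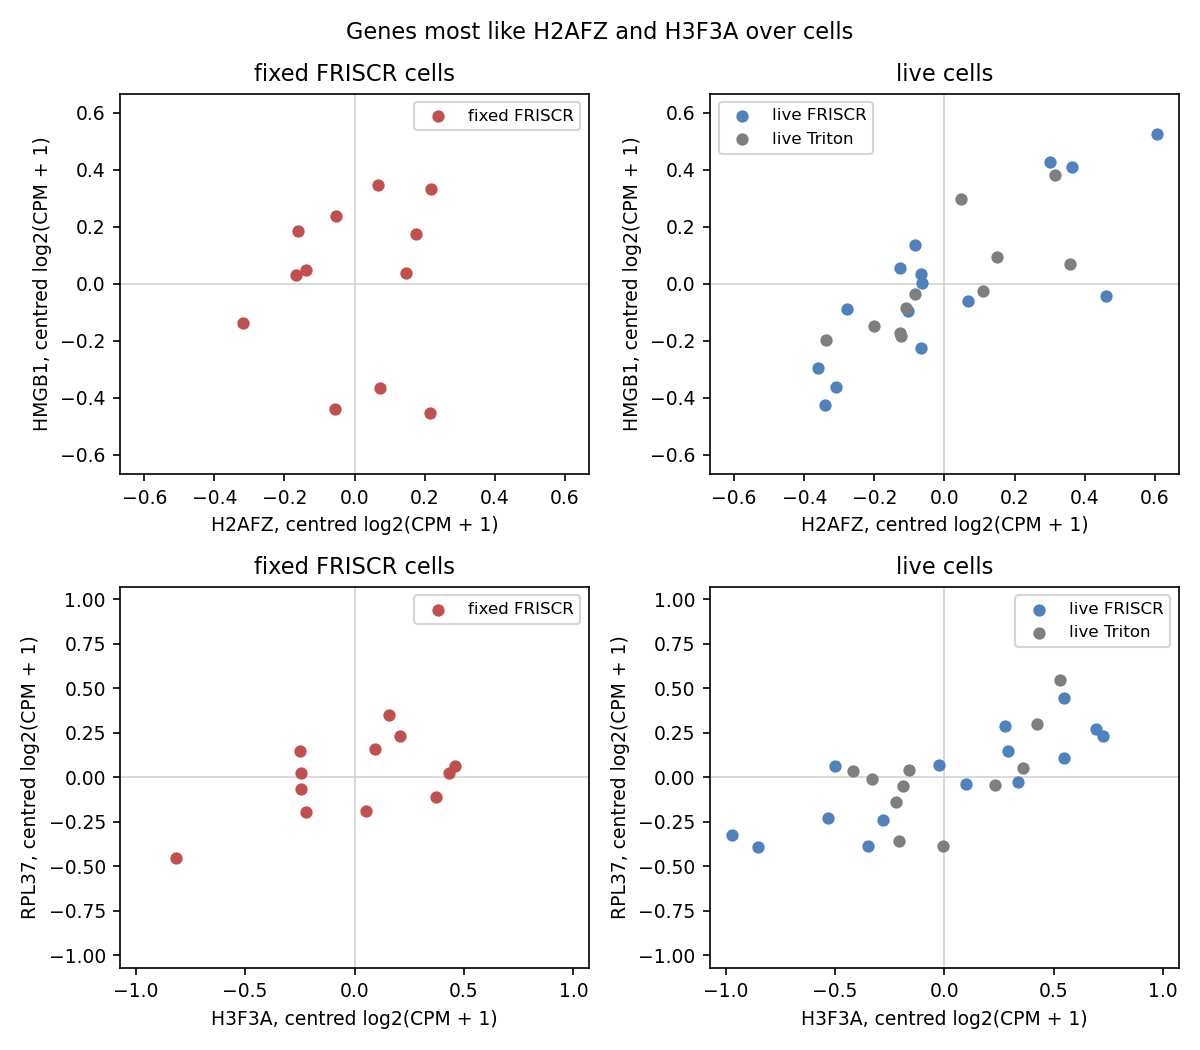
Log2(CPM + 1) of HMGB1 against H2AFZ (top) and of RPL37 against H3F3A (bottom), centred within group and library set, with 1 point per cell, for fixed FRISCR cells (left) and live cells (right). The cloud for H2AFZ and HMGB1 is drawn out along the diagonal in live cells (r = 0.80) and shows no slope in fixed FRISCR cells (r = 0.04).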

How the data were processed

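Single-cell libraries were made by Smart-seq2 with Nextera XT, per the labels' protocols. The authors deposited 1 table of estimated counts and 1 of TPM, with 23045 rows and 45 cells. The deposited estimated counts are not normalized, and 40.3% of those above 0 are not whole. The build is GRCh37 (hg19), per the submitters' processing notes; which aligner, counter and strand setting were used is not given here. Groups came from the source names, and library sets 1 and 2 from the codes in the titles. No 2 cells had identical counts.

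Counts were rounded, and CPM were taken over each cell's total and over the summed cells of a group. Exact Poisson intervals (95%) were given to CPM and exact binomial ones to ratios. Ratios were set beside all genes reaching 20 CPM in at least 1 of the 2 groups, and 2-fold was the threshold. A sum of 0 was replaced by 3 counts. TPM served levels between genes. With each group 1 sample, cells are not replicates and nothing was tested. The ratio script was tested on simulated data. Named genes of a list were the most abundant and up to 2 past 2-fold each way; alike genes were the top 3 by Pearson's r. Transcript sequences came from GENCODE release 29, using the longest transcript with a consensus coding sequence for 3' ends and the principal one for coding comparisons. Alternatives were scaling by TMM from edgeR 4.0.16 or by the median-of-ratios factors of DESeq2 1.42.0, mean or median of cell CPM, mean TPM, other totals, single library sets, other thresholds and each cell left out. R 4.3.3 and Python 3.11.15 were used. The members and lists were chosen with earlier results of these data known.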

Additional observations from a re-analysis of the deposited data

Results flagged for a closer look

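In groups of 4 to 10 cells, which here means the 7 fixed Triton cells, 8 sets of values were checked for a cell far from the others. Of these 4 were noted. The limit used marks about 1 in 20 sets of normally distributed, independent values. Single-cell values need not be normal, and the sets share cells and genes, so the 4 noted cannot be set against that rate. H2AFV was 301 CPM in replicate 1, where the next cell had 75.4 CPM, and the gap was 0.75 of the whole range. H1F0 was 174 CPM in the same cell, next to 26.0 CPM, a gap of 0.85 of the range. That cell also had the lowest H2AFZ share of the H2A.Z pair, 87.6% beside 97.4%. Replicate 4 had an H3F3B share of 100%, beside 35.2% in the next cell, because its count of H3F3A was 0. Both cells belong to library set 1.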

How the results depend on the processing

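With fixed over live FRISCR cells, the count of members more than 2-fold higher was 1, and 0 in library set 1 alone or at 3-fold, 2 at 1.5-fold, and 0 to 1 when single cells were left out. With fixed over live Triton cells the count higher was 0, 1 (H3F3A) with TMM, with median-of-ratios and with totals without abundant and rRNA-named rows, and 3 relative to the median of all genes. The count lower was 1 there, 0 with TMM, with median-of-ratios, with those totals, relative to the median of all genes and at 3-fold, 2 in either set alone, 3 by mean TPM and at 1.5-fold, 3 by median cell CPM (leaving out H2AFY, whose median was 0 CPM in fixed Triton cells against 48.7 CPM in live Triton cells), and 1 to 3 with single cells left out. With FRISCR over Triton in live cells the count higher was 0, 1 in set 2 alone and at 1.5-fold, and 0 to 1 with single cells left out. Among fixed cells it was 3, 1 with TMM, with median-of-ratios, with those totals, relative to all genes and at 3-fold, 5 by mean TPM and at 1.5-fold, and 2 to 3 with single cells left out, and the count lower was 0, and 1 relative to all genes; by median cell CPM H2AFY is again left out.

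Signs of called ratios turned for H3F3B in fixed over live Triton cells relative to all genes (0.24), and among fixed cells, FRISCR over Triton, for H2AFV with median-of-ratios (-0.086) and relative to all genes (-0.35) and for H3F3B relative to all genes (-0.24). The difference of both fixation effects had a median of 1.12 over the members, turned with median-of-ratios (-0.031) and relative to all genes (-0.36), and was 0.91 to 1.26 with single cells left out. The cause was not tested. By counts instead of TPM the median H3F3B share was 62.0% in fixed FRISCR, 65.0% in live FRISCR and 71.6% in live Triton cells. By TPM in set 1 alone it was 58.7% in live Triton cells. The median H2AFZ share by counts was 94.0%, 95.1% and 94.6% in fixed FRISCR, live FRISCR and live Triton cells. With single cells left out the median H3F3B share was 36.8% to 37.0% in fixed FRISCR, 37.6% to 41.2% in live FRISCR, 20.2% to 26.2% in fixed Triton and 46.3% to 47.6% in live Triton cells. The median H2AFZ share was 96.9% to 97.0%, 97.5% to 97.7%, 98.6% to 99.3% and 97.4% to 97.5% in the same groups. A median moves only among its central cells when 1 cell is left out, so these ranges do not measure the spread over cells. Of the values of single members and backgrounds, 31 others moved by more than their spread under settings that keep all cells or one library set. Scaling relative to the median of all genes, and every setting tried for the difference of the fixed over live ratios, were chosen after seeing the data. No paired analysis was possible because replicate numbers only follow the order of deposit. Genes at a few counts in the 7 fixed Triton cells are limited by the number of cells.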
